A study of Mus musculus with 18 samples.

Results

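The transcripts of 46 genes of the complement and coagulation systems were followed in the liver RNA-sequencing of 18 mice. The genes were taken from a list of symbols and split into 26 complement and 20 coagulation genes. Transcripts were joined to genes by the GENCODE mouse annotation and their estimated counts were summed. Of the 46 genes, 45 passed the filter on low counts, among 10938 genes tested out of 52230. The gene that did not pass was Cfd, which encodes complement factor D, a protease made mainly by fat cells. Its highest value in any liver was 1.600 normalized counts, and 4 of 5 adipocyte markers (Adipoq, Retn, Plin1 and Lep) stayed under 3 normalized counts in every library.

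Complement is a set of plasma proteins that act in a cascade of proteolytic steps. The classical pathway starts from the C1 complex on antibody, the lectin pathway from mannose-binding lectins on microbial sugars, and the alternative pathway from factor B on surfaces that carry C3b. All converge on cleavage of C3 and then of C5, after which C5b gathers the terminal proteins into a membrane attack complex that forms a pore. Coagulation is a related cascade that ends in thrombin, which turns fibrinogen into fibrin, and plasmin later dissolves the clot. Hepatocytes make most of these plasma proteins, while the chains of C1q and properdin come largely from macrophages and other leukocytes.

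All mice were of the GCKR-P446L-EMI-B6N strain, a knock-in line for the P446L change, and were fed standard chow. PP mice carried the proline form at residue 446 of GKRP, the glucokinase regulatory protein (genotype Gckr-446P), and LL mice the leucine form (Gckr-446L). There were 4 male PP mice of 9 to 14 weeks, 4 male LL mice of 13 to 14 weeks, 5 female PP mice of 9 to 14 weeks and 5 female LL mice of 11 to 14 weeks by their own labels, whereas the series text gives 14 weeks for all. Each library was 1 mouse, and the number after a group name only names a mouse. Levels are given as DESeq2 normalized counts, which are estimated counts divided by a size factor of the library, or as TPM, the unit of Salmon that is corrected for transcript length and library size. A log2 fold change is the DESeq2 estimate with its standard error. Genes were called differentially expressed (DEGs) where the adjusted P was under 0.05 and the fold was 1.3 or more, or 0.7 or less. The comparisons asked which of the genes differed by LL genotype within each sex, and which differed by sex within each genotype.

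Total estimated counts ranged from 3794671 to 6613905 per library. Hepatocyte markers were high in all libraries (6 of 6 tested, with sums of 424922 to 825747 normalized counts, lowest in male PP and highest in female PP mice). Libraries of the same group always differed by more than sampling noise. Fragment length, estimated from the deposited effective transcript lengths, was 292 ± 52.1 bases in female LL and 448 ± 108 in female PP mice (SD, n = 5 each, two-sided exact permutation p = 0.0159), and the mitochondrial share of counts also differed between them (p = 0.0317, exact permutation). In males neither differed by genotype beyond the spread (exact permutation p = 0.286 and 0.171). In bulk liver, fewer cells of a type and less RNA per cell cannot be told apart.

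Per length, the highest levels among the 46 genes belonged to inhibitors and substrates of the cascades rather than to their early proteases. Serpinc1, which encodes antithrombin, the main inhibitor of thrombin, had a mean of 2482 ± 927 TPM (SD, n = 18), although 40.4% of its counts were on a short transcript of 742 bases annotated for nonsense-mediated decay. C3, the central component of complement, had 2002 ± 628 TPM, Fgg, the gamma chain of fibrinogen, 1359.6 ± 334 TPM and Kng1, kininogen, 1166 ± 339 TPM. These SDs span differences between mice and groups, and whether neighbours in this order differ within mice was not tested. Apart from Cfd, the lowest were Cfp, properdin, at 7.35 ± 3.43 TPM, Pros1, protein S, at 9.27 ± 2.95 TPM, Masp1, a protease gene of the lectin pathway, at 12.99 ± 3.28 TPM and C1qc at 15.2 ± 5.57 TPM.

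**Figure D1:**
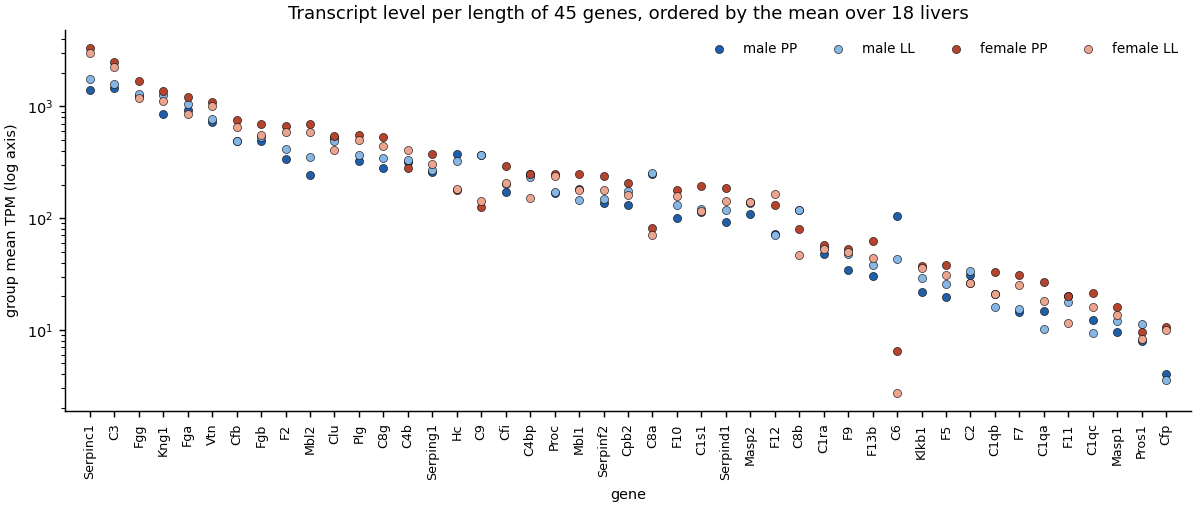
Group mean TPM (log axis) of the 45 genes with a mean of at least 1 TPM, ordered from left to right by the mean over 18 livers, with 1 point for each of the 4 groups. In the mean over 18 livers Serpinc1 is highest and Cfp lowest, though not in every group. For C6 the male points, at 104 and 43.1 TPM, stand apart from the female points at 6.48 and 2.697 TPM.

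The summed level depended on the scale. Complement genes took 1.16% to 1.87% of all estimated counts of a library, and coagulation genes 1.43% to 2.21%. On the TPM scale the complement sum was 104% of the male PP mean in male LL mice, and 132% in PP and 115% in LL females, and the coagulation sum 119%, 171% and 141%. With normalized counts the same sums were 79.5%, 91.7% and 80.9% for complement and 86.6%, 89.2% and 79.0% for coagulation. The direction against male PP thus turned between the scales. On the TPM scale the group means of all tested genes shifted as well, with a median log2 ratio of 0.34 in male LL against male PP, -0.11 in female LL against female PP, 0.74 in female PP against male PP and 0.29 in female LL against male LL mice, whereas with normalized counts these medians lay within 0.02 of 0. All directions below are therefore given on the normalized count scale, relative to the other genes.

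Sex was the comparison in which complement genes differed most often, whereas Fga, in LL mice, was the 1 coagulation gene that was a DEG by sex. In female PP against male PP mice, 2 of 25 complement genes were DEGs with higher and 9 with lower levels in females, and 0 of 20 coagulation genes were DEGs, where 6.45% of all tested genes were. Among the coagulation genes 8 of 20 had an unadjusted P below 0.05 in this comparison, against 17.5% of all genes, and edgeR called 0. In female LL against male LL mice, 2 complement genes were higher and 6 lower, and 1 coagulation gene was lower, against 6.12% of all genes. These comparisons share no mouse. They had 8 genes in common as DEGs of the same direction, where 2.75% of all genes were: C6, C9, C8a, C8b, Hc and C2 were lower in females of both genotypes, and Mbl2 and Cfp were higher.

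Markers of other liver cells moved in the same comparison of PP mice. In female PP against male PP mice 4 of 4 tested stellate cell markers and 3 of 6 endothelial markers were higher, and 4 of 10 acute-phase genes were lower. The summed stellate markers were 282 to 582 normalized counts in male PP and 670.0 to 924 in female PP mice, and the summed endothelial markers 144 to 275 and 282 to 592. In female LL against male LL mice none of these stellate or endothelial markers was a DEG with DESeq2 or edgeR (0 of 4 and 1 of 6 at an unadjusted P below 0.05), and 1 of 10 acute-phase genes was lower. Of 7 Kupffer cell markers 1, Vsig4, was higher there (3 of 7 at an unadjusted P below 0.05). Of cholangiocyte, lymphocyte and neutrophil markers 1 of 5, 1 of 5 and 0 of 4 passed the filter on low counts, and Ly6g and Camp, of neutrophils, were under 3 counts in every library. The part of these cells in the sex differences was not tested.

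**Figure D2:**
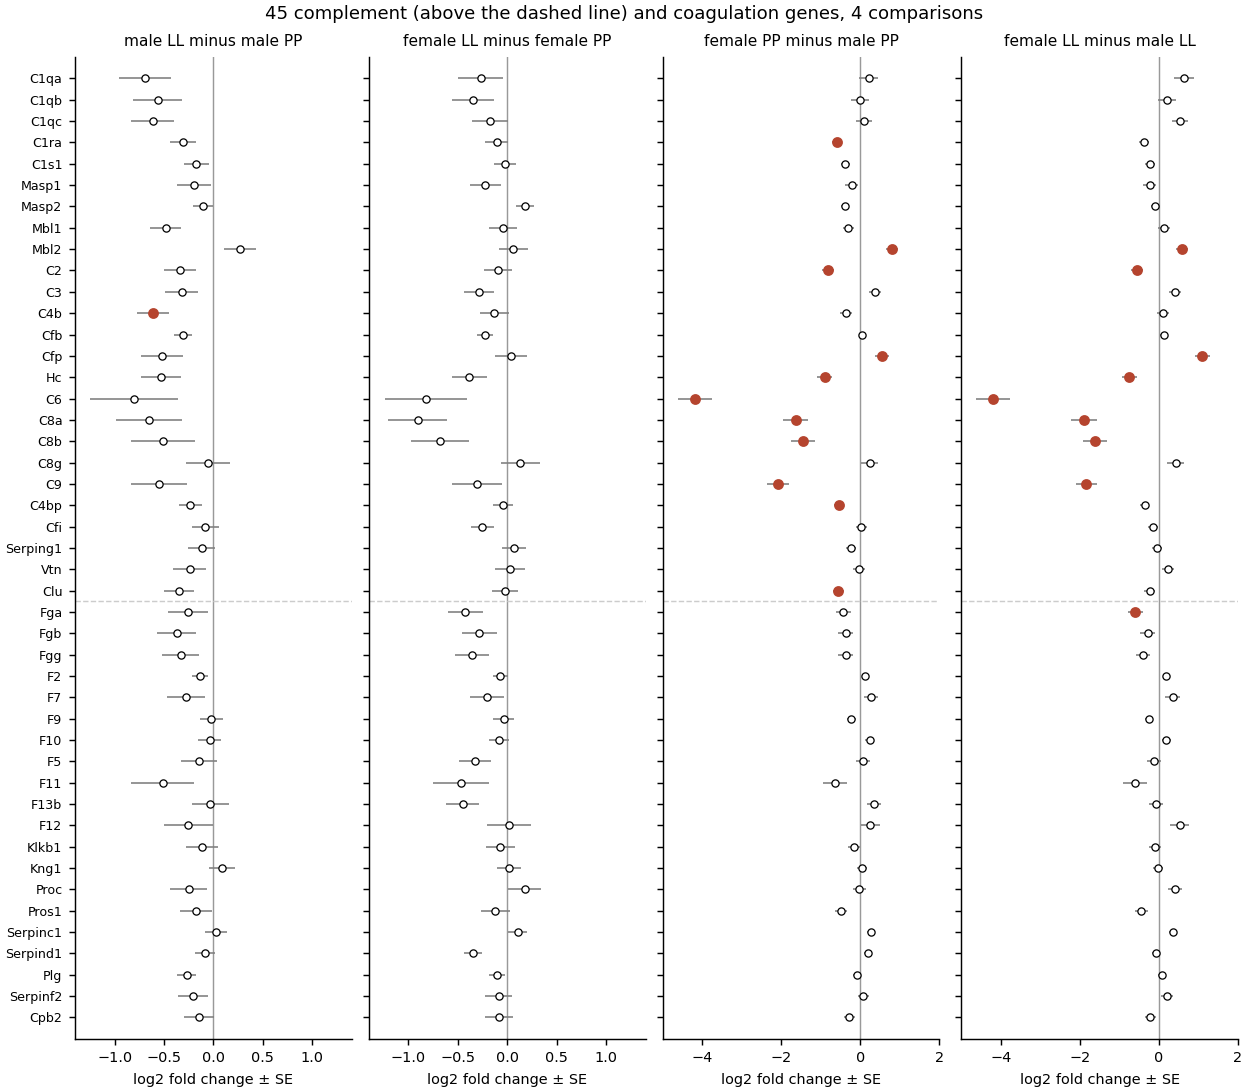
Log2 fold change with its SE (x axis) of the 45 tested genes (y axis) in 4 comparisons; filled points are DEGs, and complement genes lie above the dashed line. The filled points sit almost wholly above the line in the 2 comparisons of sex, with C6 at -4.18 and -4.20, and the 2 comparisons of genotype hold 1 filled point, C4b in males.

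The LL genotype gave 1 DEG among the 45 genes in males and none in females. It was C4b, lower in male LL than male PP mice, where 0.283% of all genes were DEGs. In females DESeq2 and edgeR both called 0 of 45, with 12 at an unadjusted P below 0.05, where 0.658% of all genes were DEGs, edgeR called 0.0274% and 13.0% had such a P. In males 13 of 45 had an unadjusted P below 0.05, against 7.83% of all genes, and edgeR called 0, as against 0.0274% of all genes. The estimates leaned to lower levels in LL mice: 42 of 45 genes had a log2 fold change below 0 in males and 35 of 45 in females, against 49.9% and 48.4% of all genes. The medians were -0.25 in males and -0.11 in females, against 0.00 and 0.01 over all genes. On the TPM scale the medians of the 45 genes were 0.10 and -0.26, against shifts of 0.34 and -0.11 over all genes, so that 14 of 45 and 39 of 45 lay below 0 there. Complement genes had a median of -0.34 in males, with 24 of 25 below 0, and coagulation genes -0.16, with 18 of 20 below 0. No gene was a DEG in the genotype by sex interaction with DESeq2 or edgeR (4 of 45 at an unadjusted P below 0.05, against 0.119% DEGs and 5.67% with such a P among all genes), so no difference between the sexes in the response to genotype was shown. DESeq2 gave no adjusted P, and so could make no call, for 3 of the 45 in males, 0 in females and 7 in the interaction.

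The terminal genes encode C5 (Hc), C6, C9 and the 3 chains of C8 (C8a, C8b and C8g). C7, the remaining protein of the membrane attack complex, had at most 1.78 normalized counts in any liver. The 250 bases upstream of the most abundant transcript of C6, C9, C8a, C8b and Hc, and of C4b, are shown because these were the 5 terminal genes called in both comparisons of sex and the DEG of genotype. They are written 5′ to 3′ in the direction of the gene, from GRCm39. Capitals mark matches to any of 8 short motifs of liver transcription factors searched on both strands.

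C6: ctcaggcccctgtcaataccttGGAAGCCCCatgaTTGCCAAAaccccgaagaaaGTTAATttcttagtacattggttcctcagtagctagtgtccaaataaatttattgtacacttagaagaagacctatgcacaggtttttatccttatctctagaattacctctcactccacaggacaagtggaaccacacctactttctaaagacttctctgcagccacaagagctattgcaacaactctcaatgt
C9: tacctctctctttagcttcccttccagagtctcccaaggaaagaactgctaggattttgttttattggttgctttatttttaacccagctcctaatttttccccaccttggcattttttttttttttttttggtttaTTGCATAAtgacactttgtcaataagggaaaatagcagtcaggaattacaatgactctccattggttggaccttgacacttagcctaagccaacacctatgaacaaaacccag
C8a: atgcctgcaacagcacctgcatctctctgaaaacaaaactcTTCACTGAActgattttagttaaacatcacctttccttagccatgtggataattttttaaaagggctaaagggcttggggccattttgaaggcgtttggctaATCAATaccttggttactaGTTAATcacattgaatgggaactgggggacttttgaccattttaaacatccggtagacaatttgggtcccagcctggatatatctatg
C8b: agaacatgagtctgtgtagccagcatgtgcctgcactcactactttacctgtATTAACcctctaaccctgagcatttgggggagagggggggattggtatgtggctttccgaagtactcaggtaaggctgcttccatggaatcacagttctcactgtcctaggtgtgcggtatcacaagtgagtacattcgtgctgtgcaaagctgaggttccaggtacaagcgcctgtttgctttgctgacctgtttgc
Hc: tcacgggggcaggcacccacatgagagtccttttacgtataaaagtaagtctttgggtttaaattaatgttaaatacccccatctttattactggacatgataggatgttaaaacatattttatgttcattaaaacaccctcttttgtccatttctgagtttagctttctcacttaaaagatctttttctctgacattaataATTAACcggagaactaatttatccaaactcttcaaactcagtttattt
C4b: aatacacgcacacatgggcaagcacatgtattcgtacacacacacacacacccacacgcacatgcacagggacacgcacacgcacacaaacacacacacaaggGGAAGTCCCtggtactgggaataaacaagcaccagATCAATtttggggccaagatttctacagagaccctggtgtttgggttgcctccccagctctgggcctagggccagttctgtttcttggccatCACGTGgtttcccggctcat

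The windows lie at chr15:4756275-4756524, plus strand; chr15:6474558-6474807, plus strand; chr4:104733615-104733864, minus strand; chr4:104623256-104623505, plus strand; chr2:34951451-34951700, minus strand; and chr17:34962913-34963162, minus strand. The 6 letters GTTAAT, part of the HNF1 site, were found upstream of C6, C8a, C8b and Hc, and in 10 of the 45 gene windows (22.2%) against 5.53% of the windows of all 10938 genes. TTGCNNAA of the C/EBP family was found upstream of C6 and C9, in 11 of 45 windows (24.4%) against 8.83%. TTCNNNGAA, bound by STAT factors, was found upstream of C8a and in 7 of 45 windows (15.6%) against 6.72%, and ATTGAT, bound by HNF6, upstream of C8a and C4b and in 8 of 45 (17.8%) against 5.10%. GGGNNTTCC of NF-kB matched in C6 and C4b and in 6 of 45 windows (13.3%) against 5.26%, and CACGTG, the E-box of USF, in C4b alone of the 45 (2.22%) against 7.43%. CAAAGTCCA of HNF4 and TGTTTAC of FOXA had 0 matches in the 45 windows, against 0.37% and 2.63% of all windows. Among the 301 genes called in both comparisons of sex, GTTAAT was in 14.62% of windows, TTGCNNAA in 13.62%, TTCNNNGAA in 9.63% and ATTGAT in 14.95%. In the same windows GGGNNTTCC was in 4.98%, CACGTG in 6.31%, CAAAGTCCA in 1.66% and TGTTTAC in 4.98%. The matches describe letters in these windows, and whether a factor binds there was not measured.

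C6 showed the widest difference by sex. Its product joins C5b as the first step of the pore. C6 (ENSMUSG00000022181, chromosome 15, 4756525 to 4844580) had 1557, 1766, 1293 and 1236 normalized counts in the 4 male PP mice and 127, 31.8, 154, 31.7 and 58.3 in the 5 female PP mice. In LL mice it had 519.7, 927, 889.6 and 1013 in males and 68.3, 56.3, 43.1, 24.7 and 35.02 in females. Every male lay above every female in both genotypes. C6 was 18.2-fold lower in female PP mice (log2 fold change -4.18 ± 0.43 (SE), DESeq2 adjusted P 5.18e-20) and 18.4-fold lower in female LL mice (-4.20 ± 0.43 (SE), adjusted P 2.23e-19).

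C9, which polymerizes to form the wall of the pore, was also lower in females. Its normalized counts (ENSMUSG00000022149, chromosome 15, 6474795 to 6547009) were 5069, 4418, 3221 and 2837 in male PP and 1129, 806, 1550.1, 473 and 631 in female PP mice. They were 2205, 2677, 2364 and 3359 in male LL and 943, 847, 709, 649 and 562 in female LL mice, again with no overlap between the sexes. C9 was 4.23-fold lower in female PP mice (log2 fold change -2.08 ± 0.27 (SE), DESeq2 adjusted P 2.34e-12) and 3.57-fold lower in female LL mice (-1.84 ± 0.27 (SE), adjusted P 2.27e-09).

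C8 is a complex of an alpha, a beta and a gamma chain, and only the genes of the alpha and beta chains, which insert into the membrane complex, passed the test by sex. C8a (ENSMUSG00000035031, chromosome 4, 104672876 to 104733614) had 4509, 5054, 3374 and 3824 normalized counts in male PP and 2152, 765, 1876, 509 and 1425 in female PP mice. In LL mice the counts of C8a were 2514, 2382, 2292 and 3465 in males and 979, 817, 389, 602 and 802 in females. C8a was 3.11-fold lower in female PP mice (-1.64 ± 0.32 (SE), DESeq2 adjusted P 1.69e-05) and 3.71-fold lower in female LL mice (-1.89 ± 0.32 (SE), adjusted P 4.60e-07).

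C8b lies next to C8a on chromosome 4, from 104623328 to 104662573, on the opposite strand. It had 3123, 3086, 1928 and 1922 normalized counts in male PP and 1386, 578, 1406, 488 and 721 in female PP mice, and 1687, 2081, 1519 and 1766 in male LL and 779, 829.9, 381, 363 and 506 in female LL mice. The sexes did not overlap in either genotype, and the fold differences were 2.74 (-1.46 ± 0.31 (SE), DESeq2 adjusted P 9.93e-05) and 3.08 (-1.62 ± 0.31 (SE), adjusted P 1.30e-05). Female PP 1 and 3 were the highest female PP mice for C6, C8a, C8b and C9, and the same libraries had the longest fragments of their group, at 457.9 and 631.0 bases. The part of fragment length in this order was not tested.

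C8g, the gamma chain, a lipocalin that is not needed for the pore itself, did not pass in either comparison of sex. Its normalized counts (ENSMUSG00000015083, chromosome 2, 25388657 to 25391771) were 1830.4, 1003, 1493 and 1371 in male PP and 1841, 2009, 1559, 1762 and 1203 in female PP mice. They were 785, 1573, 1520.5 and 1595 in male LL mice, of which male LL 1 was lowest, and 2264, 1588, 1573, 1858 and 1892 in female LL mice. The groups overlapped throughout, with log2 fold changes of 0.23 ± 0.21 (SE) (DESeq2 adjusted P 0.656) and 0.42 ± 0.21 (SE) (adjusted P 0.231), the latter of the opposite sign with transcript length offsets. Per length, C8g had 281 ± 74.6 TPM in male PP against 529 ± 223 in female PP mice, where C8a had 248 ± 46.3 and 82.1 ± 32.7 (SD, n = 4 and 5). The ratio of C8a to C8g normalized counts was 3.14 ± 1.29 in PP and 2.10 ± 0.798 in LL males, and 0.846 ± 0.467 in PP and 0.388 ± 0.104 in LL females (SD). The ratio of C8a to C8b lay between 0.985 and 1.99 in all 18 mice.

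Hc, the gene of C5, which is cleaved to release the chemoattractant C5a, had 4747 ± 1119 normalized counts in male PP against 2546 ± 617 in female PP mice, and 3288 ± 613 in male LL and 1953 ± 251 in female LL mice (SD, n = 4 and 5). It was 1.86-fold lower in female PP (-0.90 ± 0.19 (SE), DESeq2 adjusted P 8.56e-05) and 1.68-fold lower in female LL mice (-0.75 ± 0.19 (SE), adjusted P 0.00277), without overlap. In all, 5 of the 6 terminal genes were lower in females of both genotypes without overlap between groups, where 4.53% of all genes were lower without overlap in each comparison. On the TPM scale the group means of these 5 genes were also lower in females of both genotypes, while those of C1ra and Clu, DEGs in PP mice described below, were lower in LL but not in PP females. The 5 genes kept these calls in all 21 alternatives of each comparison, edgeR and each left-out mouse included, but with length offsets the log2 fold change in PP mice was -1.80 for Hc and -2.39 for C8a.

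**Figure D3:**
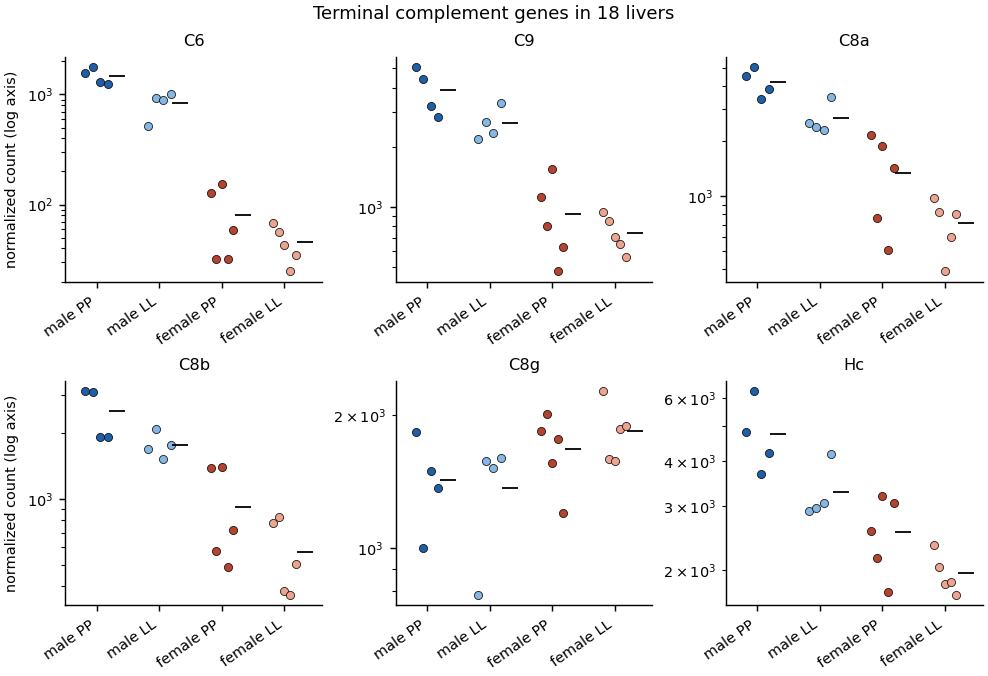
Normalized counts (log axis) of the 6 terminal complement genes, 1 point for each mouse in 4 groups, with a dash at the group mean. For C6, C9, C8a, C8b and Hc all female points lie below all male points of the same genotype, whereas C8g overlaps; C6 spans 519.7 to 1766 in males and 24.7 to 154 in females.

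By genotype, none of the 6 terminal genes was a DEG. In males all 6 had log2 fold changes below 0, with a median of -0.54, and C6 was lower in every male LL mouse than in any male PP mouse (-0.80 ± 0.44 (SE), DESeq2 adjusted P 0.490). A fit on the 8 male libraries alone called C6 (adjusted P 0.0196) and C8a (0.0396). No other of the 20 alternatives called either, with adjusted P up to 0.983 for C6 and 0.981 for C8a. In females 5 of 6 were below 0, with a median of -0.53. C8a had the widest estimate (-0.91 ± 0.30 (SE), DESeq2 adjusted P 0.104), and became a DEG without female PP 4, the lowest female PP mouse (-1.12, adjusted P 0.00330). That was 1 of 22 alternatives, and leaving out the lowest mouse of the higher group widens the gap by itself. In others the adjusted P of C8a reached 0.968. Fragment length differed between these female groups, and with transcript length offsets the female estimates were -0.10 for C8a, 0.28 for C9 and 0.14 for Hc, against -1.15 for C6 and -0.68 for C8b. With fragment length as a term in the model the estimate of C8a was -0.63 (adjusted P 0.734).

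C4b was the DEG of genotype. It encodes C4, whose cleavage is shared by the classical and lectin pathways. C4b (ENSMUSG00000073418, chromosome 17, 34947354 to 34962912) had 4280.1, 5646, 3382 and 4481 normalized counts in male PP and 2206, 2950.4, 3335 and 3138 in male LL mice, which do not overlap, as for 2.27% of all genes in this direction. In females it had 3691, 3049, 3731, 2856 and 3808 in PP and 3309, 2727, 3119, 3025 and 3489.5 in LL mice, which overlap. The log2 fold change was -0.61 ± 0.16 (SE) in males (DESeq2 adjusted P 0.0240, 1.53-fold lower) and -0.13 ± 0.14 (SE) in females (adjusted P 0.722). The interaction was 0.48 ± 0.21 (SE) (adjusted P 0.403), so the sexes were not shown to differ. C4b was singled out in an earlier analysis of the same libraries, and its call here is no independent support.

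The call of C4b was lost in 10 of 20 alternatives. The DESeq2 adjusted P was 0.0939 without male PP 1, 0.342 without male PP 2, 0.123 without male PP 4, 0.194 without male LL 1 and 0.0940 without male LL 2. It was 0.309 in edgeR's quasi-likelihood test and 0.891 with length offsets, with the log2 fold change at -0.26. Of the 31-base words of C4b transcripts 47.9% also occur in C4a, the neighbouring gene of the sex-limited protein, so reads can be assigned to either. Summed, C4b and C4a had 3067 ± 560.4 normalized counts in male LL against 4809 ± 854 in male PP mice (SD, 4 mice each), without overlap (two-sided exact permutation p = 0.0286, the smallest that 4 against 4 can give). C4a was 4.70% to 14.6% of this sum in male PP and 2.46% to 7.38% in male LL mice. The sum thus largely repeats the values of C4b, and its p is no separate support. On the TPM scale C4b had 332 ± 136 in male LL against 316 ± 30.5 in male PP mice (SD, 4 mice each), which is not lower, where the median of all genes shifted upward by 0.34. A transcript with a retained intron held 23.8% of the C4b counts.

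Acute-phase genes moved in the same comparison as C4b. Saa1, Saa2 and Lbp, 3 of 10 acute-phase genes tested, were DEGs with lower levels in male LL mice, where 0.283% of all genes were. All 10 had log2 fold changes below 0. With edgeR 0 of them were called, and 6 of 10 had an unadjusted P below 0.05 in DESeq2. In females DESeq2 and edgeR called 0 of 10 by genotype, with 5 estimates above and 5 below 0 (1 at an unadjusted P below 0.05). In the interaction DESeq2 called 2 of 10, against 0.119% of all genes, and edgeR 0. DESeq2 gave no adjusted P for 3 of the 10 in males, 2 in females and 4 in the interaction. The sum of the 10 acute-phase genes was 41713 to 116387 normalized counts in male PP mice, male PP 2 the highest, and 26436 to 52329 in male LL mice. It was 31314 to 41659 in PP and 27379 to 36753 in LL females, and none of the 10 was under 3 counts in every library. The part of the acute phase in the C4b difference was not tested.

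**Figure D4:**
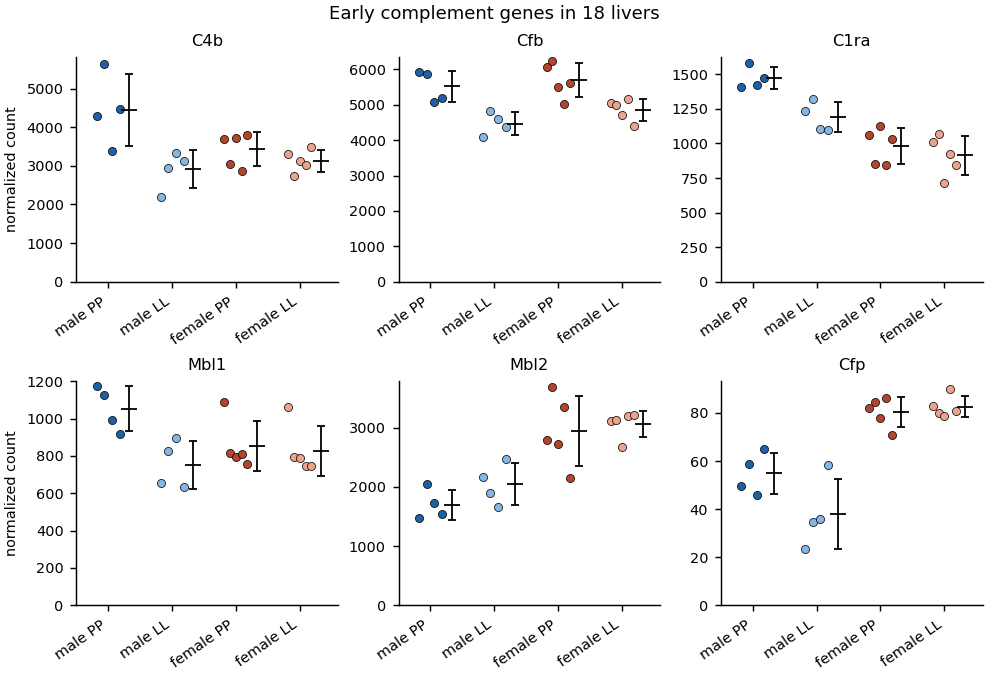
Normalized counts of 6 early complement genes, 1 point for each mouse in 4 groups, with the group mean and its SD. C4b, Cfb, C1ra and Mbl1 lie lower in male LL than male PP mice without overlap, though only C4b is a DEG, while Mbl2 and Cfp lie higher in females than in males of the same genotype.

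C2 and C3 act with C4 in forming and serving as substrate of the convertases. C2, whose cleaved form is the protease of the C3 convertase, had 576, 543, 502 and 541 normalized counts in male PP and 269, 298, 354, 306 and 312 in female PP mice. It had 327, 396, 443 and 542 in male LL and 290.4, 232, 254, 376 and 297 in female LL mice, where the groups overlap. C2 was 1.75-fold lower in female PP mice (-0.81 ± 0.15 (SE), DESeq2 adjusted P 4.14e-06), called in all 21 alternatives. In LL mice it was 1.48-fold lower (-0.56 ± 0.15 (SE), adjusted P 0.00650), and this call was lost without male LL 4 (-0.43, adjusted P 0.0612), the highest male LL mouse, and without female LL 2 (-0.50), where the fold came within the limit. It was also lost with length offsets (adjusted P 0.158), in a fit on the LL groups alone (0.0681) and with a fragment length term (0.0594), 5 of 21 alternatives in all. The words of C2 overlap those of Gm20547, a read-through gene with Cfb, and of 3 other genes, by 44.4% in all.

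C3 was abundant and did not pass in any comparison. Its normalized counts were 25186, 37859.8, 19716 and 28488 in male PP and 23580.1, 23560.4, 19078 and 22782 in male LL mice. In females they were 35821, 38343, 34814, 28456 and 41882 in PP and 29495, 33400.3, 28901, 24681 and 30879.5 in LL mice, all above the male LL mice. Its log2 fold change was 0.37 ± 0.16 (SE) in female PP against male PP mice (DESeq2 adjusted P 0.171) and 0.41 ± 0.16 (SE) in LL mice (adjusted P 0.104). Male PP 2 was the highest male, and without it C3 was a DEG in PP mice (0.55, adjusted P 0.00548). That was 1 of 21 alternatives, and in others the adjusted P in PP mice reached 0.975. In LL mice C3 was a DEG by sex in a fit on the 2 LL groups alone, also 1 of 21 alternatives. The adjusted P there ranged from 0.0289 to 0.782 over the alternatives.

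Of the 2 alternative pathway genes tested, Cfp was a DEG by sex and Cfb was not a DEG in any comparison. Cfb encodes factor B, the protease of the alternative convertase. It had 5929.7, 5878, 5072 and 5204 normalized counts in male PP and 4079, 4826, 4589 and 4369 in male LL mice, which do not overlap, and 6073, 6241, 5503, 5032 and 5625 in female PP and 5047, 4990.1, 4709.6, 5178 and 4404 in female LL mice. By genotype, Cfb had a log2 fold change of -0.31 ± 0.09 (SE) in males (DESeq2 adjusted P 0.0673) and -0.23 ± 0.08 (SE) in females (0.144), neither a DEG, and the words of Cfb overlap those of Gm20547 by 63.4%.

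Cfp, properdin, which stabilizes that convertase and is X-linked, was higher in females. It had 49.6, 58.8, 46.1 and 64.8 normalized counts in male PP and 82.2, 84.6, 78.1, 86.1 and 70.8 in female PP mice. In LL mice it had 23.3, 34.8, 35.7 and 58.3 in males and 82.9, 80.02, 78.9, 90.1 and 80.97 in females, so that the sexes did not overlap in either genotype. Cfp was 2.15-fold higher in female LL mice (1.10 ± 0.20 (SE), DESeq2 adjusted P 2.44e-06), called in all 21 alternatives. In PP mice it was 1.45-fold higher (0.54 ± 0.18 (SE), adjusted P 0.0453), which was lost in 10 of 21, with an adjusted P of 0.0719 in edgeR and from 0.0784 to 0.220 when male PP 1, 2 or 3 or female PP 1, 2, 3 or 4 was left out. At under 91 normalized counts its counting error is wide.

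Of the 4 lectin pathway genes, Mbl2 was a DEG in both comparisons of sex, with higher levels in females. It encodes mannose-binding lectin C, which binds sugars on microbes beside the product of Mbl1. Its normalized counts (ENSMUSG00000024863, chromosome 19, 30210312 to 30217496) were 1482, 2046, 1733 and 1536 in male PP and 2784, 3683, 2726, 3358 and 2158 in female PP mice, and 2159, 1898, 1657 and 2476 in male LL and 3111, 3134, 2682, 3197 and 3214 in female LL mice. Every female lay above every male of the same genotype. Mbl2 was 1.73-fold higher in female PP (0.79 ± 0.15 (SE), DESeq2 adjusted P 1.59e-05) and 1.498-fold higher in female LL mice (0.58 ± 0.15 (SE), adjusted P 0.00520), the latter lost with length offsets (0.45, adjusted P 0.197).

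Mbl1, the gene of the other lectin, was not a DEG. It had 752 ± 130.2 normalized counts in male LL against 1053 ± 120.1 in male PP mice, without overlap (-0.48 ± 0.16 (SE), DESeq2 adjusted P 0.115), and 853 ± 134 and 828 ± 135 in female PP and LL mice (SD). Mbl1 was a DEG in males in 1 of 20 alternatives, without male LL 3, the highest male LL mouse (adjusted P 0.0251). In others its adjusted P reached 0.675. Of its counts 67.3% were on a transcript annotated for nonsense-mediated decay. Of the proteases that act with the lectins, Masp2 was lower in female PP mice without overlap (-0.39 ± 0.09 (SE), adjusted P 0.000814), short of the fold limit, and shares 59.0% of its words with Tardbp. Masp1 was not a DEG in any comparison.

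In the C1 complex, 1 of the 5 genes was a DEG, the protease gene C1ra in the comparison of sex in PP mice, where 6.45% of all genes were. C1s1, the protease that cleaves C4 and C2, had 2411, 2196, 2163 and 2209 normalized counts in male PP and 1682, 1517, 1909, 1534 and 1966 in female PP mice, without overlap. In LL mice it had 2523, 1879, 1869 and 1684 in males and 1721, 1885, 1631, 1735 and 1501 in females, which overlap. The log2 fold change of -0.38 ± 0.12 (SE) in PP mice (DESeq2 adjusted P 0.0272) was short of the fold limit and was 0.01 with length offsets. C1ra, the protease that activates C1s, was a DEG in PP mice (983 ± 129 in females against 1472 ± 78.3 in males, SD, -0.58 ± 0.12 (SE), adjusted P 0.000126) and short of the fold limit in LL mice (-0.38 ± 0.13 (SE), adjusted P 0.0375). With length offsets C1ra in PP mice came within the fold limit (-0.49). C1ra and C1s1 share 56.9% and 33.4% of their words with C1rb and C1s2, and summing these paralogs changed no call.

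The chains of C1q, which bind antibody, were not called in any comparison. C1qa, C1qb and C1qc had log2 fold changes of -0.69, -0.56 and -0.62 in male LL against male PP mice (unadjusted P 0.00896, 0.0224 and 0.00435). There DESeq2 gave no adjusted P for C1qa and C1qc, so it could not call them, and 0.327 for C1qb. C1qc became a DEG in 1 of 20 alternatives, without male LL 4, its highest male LL mouse (adjusted P 0.0410). In others its adjusted P reached 0.833. Markers of Kupffer cells, the macrophages of the liver, had estimates of the same sign: 7 of 7 had a log2 fold change below 0 in both comparisons of genotype. DESeq2 and edgeR called 0, though DESeq2 gave no adjusted P for 5 of the 7 in males and 1 in females. In males 5 of 7 and in females 3 of 7 of these markers had an unadjusted P below 0.05. Their sum was 470.4 to 1203 normalized counts in male PP, 439.99 to 748 in male LL, and 887 to 1083 in PP and 515 to 851 in LL females, and none was under 3 counts in every library. Their part in the values of C1q and Cfp was not tested.

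Among the inhibitors of complement, 2 of 5 were DEGs in PP mice, both lower in females, where 6.45% of all genes were DEGs. C4bp, the binding protein that dissociates the C4b-containing convertase, had 2952, 3405, 2515 and 2781 normalized counts in male PP and 2270.1, 1722, 2169, 1881 and 1931 in female PP mice. It had 2430.1, 2421, 2490.4 and 2575 in male LL and 2136, 1971, 2061, 1894 and 1609.6 in female LL mice, so the sexes did not overlap in either genotype. For C4bp the log2 fold change was -0.55 ± 0.11 (SE) in PP mice (DESeq2 adjusted P 3.74e-05) and -0.36 ± 0.11 (SE) in LL mice (adjusted P 0.0234), the latter short of the fold limit. Without male PP 2 or female PP 2 the value in PP mice was -0.46 or -0.50, within the fold limit. The call was also lost with length offsets (-0.71, adjusted P 0.180) and with the replicate number as a block (-0.51).

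Clu, clusterin, which blocks the assembly of C9, had 5444 ± 515 normalized counts in male PP against 3689 ± 158 in female PP mice (SD, -0.56 ± 0.14 (SE), DESeq2 adjusted P 0.00271), and was within the fold limit without male PP 2 (-0.51). Vtn, vitronectin, which keeps the forming terminal complex from membranes, had 9699, 9749, 7655 and 7611 normalized counts in PP and 5456, 7923, 7195 and 8801 in LL males, and 9191, 8273, 9534, 8189 and 7189.8 in PP and 9202, 8266, 5935, 9983 and 9703 in LL females. Its groups overlapped in every comparison. Cfi, the protease that degrades C3b and C4b, and Serping1, the C1 inhibitor, had log2 fold changes between -0.25 and 0.07 in the 4 comparisons and were not DEGs in any.

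Of a list of 30 further complement genes, C4a and C7 among them, 21 passed the filter on low counts. By genotype DESeq2 and edgeR called 0 of 21, with 8 in males and 5 in females at an unadjusted P below 0.05, against 7.83% and 13.0% of all genes. DESeq2 gave no adjusted P for 7 of the 21 in males and 2 in females and could not call those. In female PP against male PP mice 3 were higher (Cd55, Colec10 and Colec11) and 2 lower (C4a and Susd4), against 6.45% of all genes called. C4a was 28.02-fold lower (-4.81 ± 0.50 (SE), DESeq2 adjusted P 3.52e-19), and Susd4, a membrane inhibitor of convertases, 8.41-fold (-3.07 ± 0.36 (SE), adjusted P 9.36e-15). Colec10 and Colec11, collectins that bind sugars, were 2.59-fold and 2.11-fold higher. In female LL against male LL mice Vsig4 was higher, and C4a, Susd4 and Cfhr4 were lower, with log2 fold changes of -2.93 for C4a and -2.85 for Susd4. Vsig4, a receptor for C3b, is also a marker of Kupffer cells.

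The fibrinogen chains were the most abundant procoagulant transcripts, and Fga alone of the 3 was a DEG, in the comparison of sex in LL mice. Fgg, the gamma chain, had 19661, 24774, 14083 and 14197 normalized counts in male PP and 15125, 14349, 12682 and 15633 in male LL mice. It had 17259, 13274, 14449, 12223 and 12790.2 in female PP and 12986, 13339, 11188, 8632 and 8455 in female LL mice, with overlap in all comparisons. Fgg had log2 fold changes of -0.33 ± 0.19 (SE) in males and -0.36 ± 0.17 (SE) in females by genotype (DESeq2 adjusted P 0.515 and 0.294), and -0.38 ± 0.18 (SE) and -0.40 ± 0.18 (SE) by sex in PP and LL mice (0.241 and 0.169). Fga, the alpha chain, was lower in female LL than male LL mice (8141 to 11842 against 13347 to 16273, -0.60 ± 0.19 (SE), adjusted P 0.0264).

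The call of Fga was lost in 8 of 21 alternatives, with an adjusted P of 0.0796 in edgeR and of 0.0931, 0.0721, 0.0697, 0.0899 and 0.0950 without male LL 1, 2 or 4 or female LL 4 or 5; length offsets and a fragment length term also ended it. All 3 chains had log2 fold changes below 0 in each of the 4 comparisons, between -0.60 and -0.26, although Fga in males was 0.01 without male PP 2. The sum of the chains was 56534 ± 16830 in male PP (male PP 2 the highest at 78950.0), 45243 ± 3729 in male LL, and 43113 ± 5651 in PP and 33812 ± 7040 in LL females (SD). Fibrinogen is itself an acute-phase protein, and the acute-phase sums given above were likewise highest in male PP 2. Their part in the fibrinogen values was not tested.

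**Figure D5:**
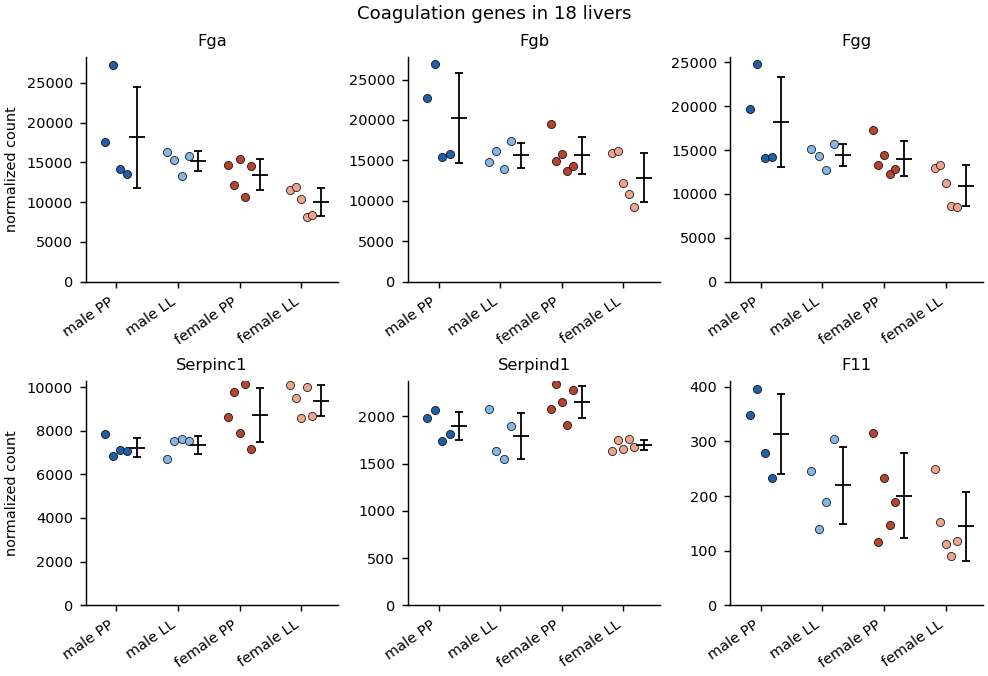
Normalized counts of 6 coagulation genes, 1 point for each mouse in 4 groups, with the group mean and its SD. The fibrinogen chains overlap between groups except Fga in LL mice of the 2 sexes, Serpind1 lies lower in female LL than in female PP mice, and Serpinc1 lies higher in female LL than in male LL mice.

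The vitamin K-dependent procoagulant genes were not DEGs in any comparison. F2, prothrombin, had 6399, 6348, 5860.2 and 6496 normalized counts in male PP and 5019.5, 6371, 5706 and 5718 in male LL mice, and 7268, 7149.5, 6449, 7170.4 and 6184 in female PP and 6134, 6635, 6389, 6645 and 6773 in female LL mice. Its log2 fold changes lay between -0.14 and 0.19, with SE of 0.07 to 0.08. F7, which starts coagulation with tissue factor, F9 and F10 had values between -0.28 and 0.35. F9, which is X-linked, was at -0.24 and -0.25 by sex (DESeq2 adjusted P 0.237 and 0.175).

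Of the other procoagulant genes, F13b, the carrier chain of the enzyme that cross-links fibrin, had 654, 665, 577 and 627 normalized counts in male PP and 872, 531, 576 and 495 in male LL mice. It had 822, 775, 860.2, 599.7 and 942 in female PP and 529.9, 720.2, 705, 466 and 506 in female LL mice, where the groups overlap (-0.45 ± 0.17 (SE), DESeq2 adjusted P 0.156). In 1 of 22 alternatives F13b became a DEG, without female PP 4 (-0.54, adjusted P 0.0332). This was the lowest mouse of the higher group, and leaving it out widens the gap by itself. In others the adjusted P of F13b reached 0.718. F11, the zymogen that thrombin activates to sustain coagulation, had the widest estimates of the coagulation genes by sex, -0.65 ± 0.30 (SE) in PP and -0.60 ± 0.30 (SE) in LL mice, and by genotype, -0.51 ± 0.32 (SE) in males and -0.47 ± 0.29 (SE) in females. None passed (adjusted P from 0.220 to 0.562), at 90.1 to 396 normalized counts. F5, the cofactor of factor X, had values from -0.33 to 0.06.

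In the contact system, Kng1, kininogen, from which bradykinin is released, had 11076, 12788, 10778 and 8789 normalized counts in male PP and 12048, 11423, 9969.7 and 12656 in male LL mice, and 11038, 10608, 12167, 10211 and 11925 in female PP and 12987, 10123, 9913, 13422 and 10156 in female LL mice. Its log2 fold changes lay between -0.03 and 0.09, with SE of 0.12 to 0.13. Kng1 shares 26.4% of its words with Kng2. Klkb1, prekallikrein, and F12, which activates it, were not DEGs, the largest estimate being 0.53 ± 0.23 (SE) for F12 by sex in LL mice (DESeq2 adjusted P 0.165).

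The anticoagulant genes held differences that passed the adjusted P but not the fold limit. Serpinc1 (ENSMUSG00000026715, chromosome 1, 160806146 to 160833433) had 7859, 6851, 7106 and 7075 normalized counts in male PP and 8640.5, 9778, 7902, 10124 and 7153 in female PP mice. In LL mice it had 6719.9, 7545, 7621 and 7512 in males and 10091, 9506, 8576, 9993 and 8683 in females, without overlap. The log2 fold change in LL mice was 0.35 ± 0.10 (SE) (DESeq2 adjusted P 0.0165). It passed both limits without female LL 3 (0.38), the lowest female LL mouse, and with the replicate number as a block. Elsewhere among the 21 alternatives the adjusted P rose to 0.169. In PP mice the log2 fold change was 0.27 ± 0.10 (SE) (adjusted P 0.0955).

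Serpind1, heparin cofactor II, another inhibitor of thrombin, was the only 1 of the 45 genes lower in female LL than female PP mice without overlap, where 1.16% of all genes were. It had 2152 ± 170.0 normalized counts in PP and 1695 ± 55.9 in LL females (SD, n = 5 each, -0.34 ± 0.09 (SE), DESeq2 adjusted P 0.0284), and 1899 ± 149.6 and 1790.0 ± 242 in male PP and LL mice (SD, n = 4 each, -0.09 ± 0.10 (SE), adjusted P 0.846). In females the log2 fold change of Serpind1 was -0.38 to -0.27 over 22 alternatives, but the adjusted P rose to 0.401. Fragment length differed between these female groups, as given above. Pros1, protein S, the cofactor of protein C, was lower in female PP than male PP mice without overlap (-0.50 ± 0.15 (SE), adjusted P 0.0212), short of the fold limit, and passed both limits without male PP 4 (-0.55) or female PP 1 (-0.53). In LL mice it was -0.44 ± 0.16 (SE) (adjusted P 0.0583) and was a DEG without male LL 2 or 3 (adjusted P 0.0173 and 0.0131). Over the 21 alternatives of each comparison the adjusted P of Pros1 rose to 0.304 in PP and 0.311 in LL mice. Proc, protein C, was not a DEG in any comparison.

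Of the fibrinolysis genes, Plg, plasminogen, the precursor of plasmin, had 10218, 9788, 7793 and 9054 normalized counts in male PP and 7407, 7041, 7593 and 8465 in male LL mice. It had 9338, 8248, 8393, 8333 and 8782 in female PP and 8077, 8154, 7388, 8639 and 7899 in female LL mice. The groups of males overlapped, and the log2 fold change by genotype was -0.27 ± 0.09 (SE) in males (DESeq2 adjusted P 0.138) and -0.10 ± 0.08 (SE) in females. Serpinf2, the inhibitor of plasmin, and Cpb2, which protects fibrin from it, had values between -0.28 and 0.20 and were not DEGs in any comparison.

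Of a list of 35 further genes in or beside coagulation, 25 were tested. By genotype DESeq2 and edgeR called 0 of the 25 in either sex. At an unadjusted P below 0.05 were 3 in males and 7 in females, against 7.83% and 13.0% of all genes. DESeq2 gave no adjusted P for 9 of the 25 in males and 5 in females and could not call those. In PP mice, Hgfac, Nqo1 and Hgf were higher in females and Serpina10, Serpine2 and Hrg lower, where 6.45% of all genes were DEGs. Of these, edgeR called 1 of the 3 higher and all 3 lower genes. In LL mice, Hgfac, Nqo1 and Gas6 were higher in females and Serpine2 lower, where 6.12% of all genes were DEGs. Hgf and Nqo1 do not encode clotting factors. Serpine2, an inhibitor of thrombin on cell surfaces, was 3.93-fold lower in female PP (-1.98 ± 0.40 (SE), DESeq2 adjusted P 3.77e-05) and 9.81-fold lower in female LL mice (-3.29 ± 0.48 (SE), adjusted P 1.71e-09). Hrg and Serpina10, which act on fibrinolysis and on factor X, were each 1.49-fold lower in female PP mice.

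A list of 24 regulators of liver secretory genes, of which 23 were tested, was read beside the sex differences. Cux2, a repressor known for its high level in female mouse liver, was 3.200, 2.098, 0.9400 and 0 in male PP and 31.9, 147, 65.5, 48.9 and 17.4 in female PP mice in normalized counts (5.49 ± 0.81 (SE), DESeq2 adjusted P 1.23e-09). Bcl6, a repressor high in male liver, was lower in female PP mice (-2.09 ± 0.62 (SE), adjusted P 0.0147), and Il1r1, the receptor of interleukin-1, was lower in females of both genotypes (-1.72 and -0.97). Esr1, the oestrogen receptor, was higher in female PP mice (1.33) and Stat5b in female LL mice (0.65). Of the 23, DESeq2 and edgeR each called 2 higher and 2 lower in female PP mice, where DESeq2 called 6.45% of all genes. In female LL mice DESeq2 called 2 higher and 1 lower, against 6.12% of all genes, and edgeR 1 higher and 1 lower. By genotype 0 of 23 were DEGs with DESeq2 or edgeR. At an unadjusted P below 0.05 were 6 in males and 5 in females, against 7.83% and 13.0% of all genes. In males DESeq2 gave no adjusted P for 16 of the 23, and in females for 1, so it could not call those. The part of these regulators in the sex differences of complement genes was not tested.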

How the data were processed

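Livers of 18 mice were sequenced by the authors, who ran Salmon on GENCODE transcripts of release M26 (GRCm39); the submitters' processing notes give Salmon 1.4.0 and FastQC. The deposited tables hold, for 139225 transcripts of each library, estimated counts (90.8% of values above 0 not whole), TPM as scaled by Salmon, and effective length in bases. Single-end or paired-end layout and strand are not given in the sources used here.

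Transcripts were joined to genes with GENCODE M39, which held 137570 of them and at least 99.76% of counts. Estimated counts were summed per gene, rounded and filtered (at least 10 counts in at least 4 libraries). All groups were fitted at once in DESeq2 1.42.0 (R 4.3.3; Wald test, Benjamini-Hochberg adjustment over all tested genes), and contrasts were drawn between groups. Fold limits were 1.3 and 0.7, with none for the interaction. An adjusted P that DESeq2 left out stayed missing. Alternatives were edgeR 4.0.16, TMM scaling, effective length offsets, other filters, the 2 compared groups alone, terms for age, fragment length or replicate number, no fold limit, paralogs summed, and leaving out each mouse. Scripts were tested on simulated data. Sharing of sequence was counted in words of 31 bases over all joined transcripts, and sequence was read from GRCm39.

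The members and lists were chosen with earlier results of these data known. Values in every mouse are given for genes called by genotype, for the 8 with the smallest adjusted P by sex and for the most abundant gene of each role. Mice shared only a number across groups, with correlations of deviations of -0.17 to 0.16 between same-numbered libraries.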

Additional observations from a re-analysis of the deposited data

Results flagged for a closer look

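In 7 of 180 sets of values (a gene in 1 group of 4 or 5 mice) the highest or lowest mouse stood farther from the others than Dixon's limit allows, and chance flags about 1 in 20. Mbl1 was highest in female PP 1 (1089 normalized counts) and, in the other female group, in female LL 1 (1065). Mbl2 was lowest in female LL 3 (2682). Hc was highest in male LL 4 (4203), and without that mouse Hc stayed a DEG by sex in LL mice (-0.61, DESeq2 adjusted P 0.0329). C8g (785) and Serpinc1 (6719.9) were both lowest in male LL 1, and without it the log2 fold change of C8g by genotype in males was 0.13. F7 was highest in female LL 5 (379).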

How the results depend on the processing

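The number of genes called in male LL against male PP mice was 0 instead of 1 with edgeR, with length offsets, and with a term for age or for fragment length, and 2 (C6 and C8a, without C4b) in a fit on the 2 male groups alone; leaving out a mouse gave 0 to 2. It was 0 without male PP 1, 2 or 4 or male LL 1 or 2, and 2 without male LL 3 (with Mbl1) or male LL 4 (with C1qc). In female LL against female PP mice it was 1 (Serpind1) instead of 0 with no fold limit, and 0 to 2 when a mouse was left out, 2 (C8a and F13b) without female PP 4. In female PP against male PP mice it was 9 to 12 with a mouse left out, in female LL against male LL mice 8 to 12, and in the interaction 0. With the replicate number as a block it was 1, 0, 9, 10 and 0 in the same order, and 9 genes were shared with the fit without the block in each comparison of sex; C4bp and Cfp were lost and Serpinc1 gained. The interaction was not run on 2 groups or with another fold limit.

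With length offsets the sign turned for C1s1 (0.012) and C3 (-0.021) in female PP against male PP, C4b (0.65), C8g (-0.15), C9 (0.28) and Hc (0.14) in female LL against female PP, and C4b (-0.048) and C8g (-0.023) in female LL against male LL mice, none of them called. In male LL against male PP mice C8g was 0.026 with the age term and -0.19 to 0.13 with a mouse left out, above 0 without male PP 1 (0.087) or male LL 1; Fga was -0.37 to 0.0090, above 0 without male PP 2; and C4b in female LL against male LL mice was -0.0055 to 0.18, below 0 without male LL 1. The cause was not tested. Summed normalized counts gave 79.5%, 91.7% and 80.9% of male PP for complement and 86.6%, 89.2% and 79.0% for coagulation (male LL, female PP, female LL). Leaving out a mouse, chosen after seeing the data, gave TPM sums of 94.0% to 114%, 122% to 145% and 106% to 126.03%, and 108% to 130.2%, 155% to 187% and 128% to 154%. Among single genes, 907 values under settings other than a left-out mouse kept direction and side of the threshold, 18 lost a call, 12 gained a call and 9 changed sign.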
